A study of Mus musculus with 4 samples.

Results

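Genes of the transforming growth factor beta (TGF-beta), bone morphogenetic protein (BMP) and SMAD signalling pathway were followed in cultured mouse keratinocytes (KCs), the main cells of the epidermis. They are 44 genes given as a list of names and grouped here by role into 9 groups, from the secreted ligands over receptors, SMADs and antagonists to the Id target genes. Their rule is a list of names and uses no measured value. All 44 names were found among the 25814 genes of the files, and 40 had enough reads to be among the 12614 genes tested.

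Both groups of KCs came from the tails of adult 129/sv mice and were grown untreated, as primary cultures, in serum-free medium with little calcium. By the labels, 2 of the 4 mRNA libraries are wild type (WT) and 2 are Nfat5-Knockout, from mice deficient in the transcription factor NFAT5, a protein best known for the response of cells to osmotic stress. The latter are called KO-labelled, since the reads of Nfat5 could not check the label. The WT mice are described as siblings of the Nfat5-/- mice, and the tails of the Nfat5-/- mice and their siblings travelled overnight on ice before KCs were prepared. No cell-specific driver is named for the disruption.

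TGF-beta, activin and BMP proteins are secreted dimers that bring together type I and type II serine/threonine kinase receptors, which phosphorylate receptor SMADs. TGF-beta and activin act mainly through SMAD2 and SMAD3 and BMPs through SMAD1 and SMAD5, each with SMAD4 as the shared partner, while SMAD6 and SMAD7 inhibit the chain. In epidermis TGF-beta is known to slow the growth of basal KCs and to induce matrix genes, and BMPs are known to influence KC differentiation and the hair follicle.

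The libraries held between 16219445 and 23494436 reads on genes. The Nfat5 gene itself was read at 1.67 and 3.002 RPKM (reads scaled to exon length and to mapped depth) in WT against 2.02 and 2.78 RPKM in the KO-labelled pair. Its reads did not separate the labels (log2 fold change 0.09, SE 0.26, edgeR adjusted p 0.913), and every direction given here rests on the labels. These reads are totals over the whole gene, in which the loss of some exons need not show, so they neither check nor contradict the genotype. Krt5 and Krt14, keratins of basal KCs, were above 4990 RPKM in each library. The summed level of 6 smooth muscle markers was 186 and 153 RPKM in WT against 524 and 832 RPKM in the KO-labelled pair, and that of 6 melanocyte markers was 7.54 and 7.20 RPKM against 2.30 and 3.20 RPKM. Most of the smooth muscle sum came from Acta2, at 164 and 134 RPKM in WT against 450 and 723 RPKM in the KO-labelled pair. The sum of 6 hair follicle and simple epithelium markers was 488 and 748 RPKM against 1565 and 1759 RPKM, most of it from the simple epithelium keratins Krt8, Krt18 and Krt7, which were past the edgeR threshold and higher (3 of 6, against 0.943% of all genes), with 50.6% of the exon reads of Krt8 placed at a single site. The hair follicle genes of that list, Sox9 and Lhx2, had log2 fold changes of -0.02 and -0.60 (edgeR adjusted p 0.959 and 0.173). Of 7 upper-layer KC markers, summed to 64.9 and 31.1 RPKM against 61.3 and 94.8 RPKM, Krtdap alone was past the threshold (log2 fold change 2.53, SE 0.34, edgeR adjusted p 0.0251). The part of these cell types in the values of the signalling genes was not tested. In bulk RNA, fewer cells of a type and less RNA per cell cannot be told apart.

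Of the 40 signalling genes tested, 1 passed the edgeR quasi-likelihood test at an adjusted p under 0.05, and it was lower in the KO-labelled libraries. This gene was Tgfbi, and over all genes tested 1.27% were past the threshold, 0.943% higher and 0.325% lower. None of the 40 was past it in the higher direction by edgeR, while DESeq2 placed Tgfbr2 past it. Before adjustment, 12 genes had a p under 0.05 (30% of 40), against 14.6% of all genes. Of these, 10 were higher (8.17% of all genes) and 2, Tgfbi and Smad7, were lower (6.47% of all genes). Of the 12, 5 (Nog, Grem1, Id1, Id2 and Id4) passed the filter on low counts through the KO-labelled libraries alone, a route that favours a higher level there, so their count is no support for a difference. The count of 12 became 6 without the second KO-labelled library, 7 when only genes with at least 10 reads in each library were tested, and 5 of 32 with limma on RPKM values.

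The middle of the 40 log2 fold changes lay at 0.01, against -0.01 for all genes, with 21 above and 19 below 0 (48.0% of all genes lay above 0). For 22 of the 40, the 95% interval of the difference lay within 1.5-fold in either direction, as for 55.7% of all genes. In 21 of the 40 (52.5%) the RPKM ranges of the groups were apart, close to the 46.5% of all genes. By the ratio of mean RPKM, with no overlap and a floor of 2 RPKM in the higher of the groups, Tgfbi was the 1 gene past 2-fold, and this rule took 1.67% of all genes (1.23% higher, 0.444% lower). Without the floor of 2 RPKM it took 8 of the 40 tested genes, 5 of them tested through the KO-labelled libraries alone, and 5.18% of all genes. It then also took Ltbp2 and Smad6, which had too few reads to be tested.

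**Figure D1:**
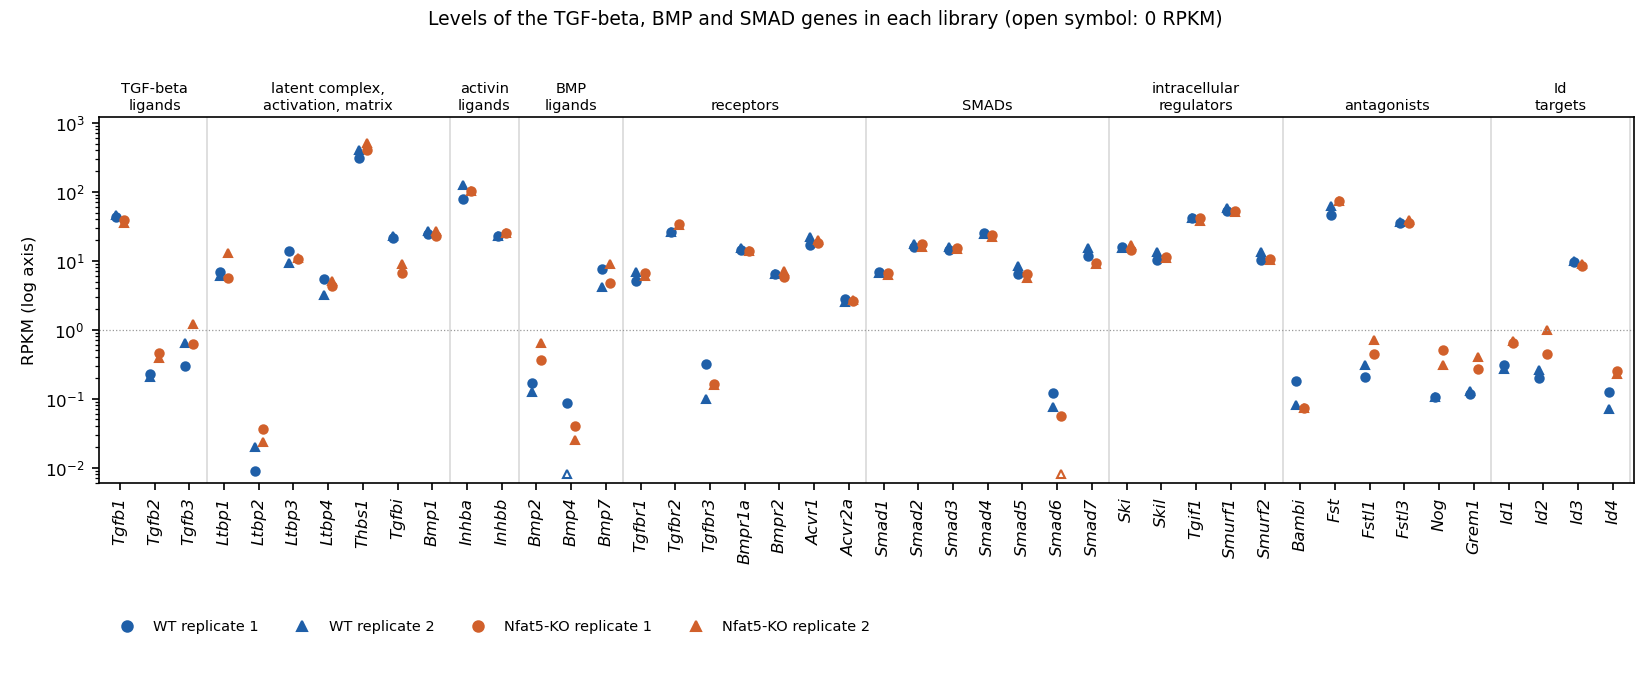
RPKM on a log axis (vertical) for the 44 signalling genes (horizontal, grouped by role) in the 4 libraries, with WT in blue and Nfat5-KO in orange and replicate 1 as circles and replicate 2 as triangles. Thbs1 and Inhba lie at the top, at 77.7 RPKM or more, and the libraries of most genes above 1 RPKM (dotted line) lie close together.

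The gene past the threshold, Tgfbi (ENSMUSG00000035493, GRCm38 chromosome 13, 56609523 to 56639562, plus strand), encodes a TGF-beta-induced adhesion protein of the extracellular matrix. Its level was 21.6 and 23.2 RPKM in WT against 6.71 and 8.88 RPKM in the KO-labelled pair, from 1084, 1548, 489 and 510 reads. Both KO-labelled libraries lay far below both WT libraries. The mean fell from 22.4 ± 1.12 to 7.79 ± 1.54 RPKM (SD, n = 2 each), so that WT held 2.87 times the level of the other group. The log2 fold change was -1.50 (SE 0.16, edgeR adjusted p 0.0129), which placed Tgfbi 14th among the 41 genes called lower. Without the first KO-labelled library the log2 fold change was -1.30 and the adjusted p 0.0558, so that no signalling gene was then past the threshold.

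The sequence before the RefSeq start of Tgfbi is shown because it is the 1 signalling gene past the threshold and a textbook TGF-beta target. The last part of it lies inside the gene as the files bound it, which starts upstream of the RefSeq transcript. It is the RefSeq promoter on GRCm38.p6, chr13:56609336-56609585, plus strand, 250 bases, with capitals on the letters CAGAC or its reverse complement GTCTG and on GGCGCC, the short words that SMAD proteins are known to bind.
Tgfbi: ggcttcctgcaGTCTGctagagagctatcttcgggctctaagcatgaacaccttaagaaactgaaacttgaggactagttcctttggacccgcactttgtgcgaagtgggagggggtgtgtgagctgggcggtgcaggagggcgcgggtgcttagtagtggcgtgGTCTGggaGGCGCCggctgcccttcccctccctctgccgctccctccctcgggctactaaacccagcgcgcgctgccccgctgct
CAGAC was found 2 times and GGCGCC 1 time on the 2 strands searched. Promoter sequences were matched for 30 of the 44 genes, with 40 promoters in all. CAGAC was present in 18 of these 40 (45%) and in 42.2% of all 32851 promoters of the table, and GGCGCC was present in 12 of the 40 (30%) and in 9.59% of all. The core word of NFAT sites, TGGAAA, again on both strands, was present in 3 of the 40 (7.5%) and in 18.6% of all. The part of GC content in these shares was not tested. A match of letters is a description of the sequence and not a measured site.

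Among the 3 TGF-beta ligands, Tgfb1 was by far the most abundant. Tgfb1 was read at 43.4 and 45.7 RPKM in WT against 39.5 and 35.3 RPKM in the KO-labelled pair, and the edgeR log2 fold change was -0.23 with an SE of 0.10 and an adjusted p of 0.359. The groups did not overlap, but the difference did not pass the test. Tgfb2, the isoform linked to hair follicle development, was at 0.231 and 0.208 RPKM in WT against 0.463 and 0.393 RPKM in the KO-labelled pair, from 21, 26, 60 and 40 reads. Both KO-labelled libraries lay above both WT libraries, at a log2 fold change of 0.93 (SE 0.31, unadjusted p 0.0181, edgeR adjusted p 0.235). Tgfb3 ranged from 0.302 RPKM in the first WT library to 1.22 RPKM in the second KO-labelled library, the groups overlapped, and 54.9% of its exon reads were placed at a single site, so its level is less certain.

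Secreted TGF-beta is kept latent in the matrix by LTBP proteins. By mean level Ltbp3 was the highest of their genes, at 9.40 to 14.0 RPKM over the 4 libraries, with a log2 fold change of -0.10 (SE 0.18). Ltbp1 was at 6.93 and 5.97 RPKM in WT against 5.67 and 12.9 RPKM in the KO-labelled pair, and only the second of these stood above WT. Ltbp4 lay between 3.17 and 5.35 RPKM in overlapping groups, and Ltbp2, with 2 and 6 reads in the WT libraries and 7 and 3 in the KO-labelled ones, was not tested.

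Thbs1, whose product thrombospondin 1 can activate latent TGF-beta, had the highest level of all 44 genes. It was at 307 and 410 RPKM in WT against 407 and 515 RPKM in the KO-labelled pair, with means of 358 ± 72.4 and 461 ± 75.9 RPKM (SD, n = 2 each). The groups overlapped narrowly, and the log2 fold change of 0.38 (SE 0.17) had an edgeR adjusted p of 0.365. Bmp1, a metalloproteinase that processes procollagen and frees growth factors from LTBP complexes, was at 23.1 to 27.1 RPKM in all libraries, with a log2 fold change of -0.01 and a 95% interval from -0.30 to 0.28.

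The activin ligand genes were also well expressed. Inhba, which encodes the activin A subunit, was at 77.7 and 125 RPKM in WT and at 102 RPKM in both KO-labelled libraries, which lay between the WT values. Inhbb, the activin B subunit gene, was at 23.2 and 22.7 RPKM in WT against 25.4 and 24.9 RPKM in the KO-labelled pair, a small difference without overlap (log2 fold change 0.15, SE 0.10, edgeR adjusted p 0.518).

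BMP ligand genes were lower in level. Bmp7 was the highest at 7.64 and 4.22 RPKM in WT against 4.77 and 8.96 RPKM in the KO-labelled pair, with overlap and a log2 fold change of 0.25 (SE 0.36). Bmp2 (chromosome 2, 133552159 to 133562885), a ligand used by KCs and hair follicles, was at 0.169 and 0.127 RPKM in WT against 0.362 and 0.648 RPKM in the KO-labelled pair, from 10, 11, 31 and 46 reads. Both KO-labelled libraries lay above WT, with a log2 fold change of 1.76 (SE 0.46, 95% interval 0.67 to 2.85). The unadjusted p was 0.00637 and the edgeR adjusted p 0.144, so the difference did not pass the test. Bmp4 was not tested, with 3 and 0 reads in the WT libraries and 3 and 1 in the KO-labelled ones, where a count of 0 in the second WT library allows up to 0.139 CPM (reads scaled to library size).

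None of the 7 receptor genes passed the edgeR test, and 1 had an unadjusted p under 0.05 (14.3%, against 14.6% of all genes). This was Tgfbr2, the type II receptor that binds TGF-beta and the highest of them, at 26.5 and 26.3 RPKM in WT against 34.4 and 32.5 RPKM in the KO-labelled pair (26.4 ± 0.155 and 33.5 ± 1.36 RPKM, SD, n = 2 each). The replicates lay close together and the groups did not overlap, for a log2 fold change of 0.36 (SE 0.10, unadjusted p 0.00684, edgeR adjusted p 0.148). With DESeq2 the log2 fold change was again 0.36 and the adjusted p was 0.0443. Its partner Tgfbr1, the type I receptor, lay between 5.14 and 6.79 RPKM with overlap and a 95% interval of the log2 fold change from -0.26 to 0.44.

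For the BMP and activin receptors the libraries lay close together. Bmpr1a was at 14.2 and 15.4 RPKM in WT and at 13.9 RPKM in both KO-labelled libraries, and Acvr1 ran from 17.0 to 22.2 RPKM. Bmpr2, at 5.75 to 7.07 RPKM, and Acvr2a, at 2.56 to 2.81 RPKM, had log2 fold changes of 0.01 and -0.05. Of the 7 receptor genes, 6 had a 95% interval within 1.5-fold in either direction. The exception was Tgfbr3, the coreceptor betaglycan, which was under 0.32 RPKM in every library.

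All 6 SMAD genes tested had a log2 fold change under 0, from -0.54 to -0.01, where 48.0% of all genes lay above 0. None of them passed the edgeR test, and 1 had an unadjusted p under 0.05, near the 14.6% of all genes. Smad4, the shared partner, was the highest at 24.8 and 24.6 RPKM in WT against 23.7 and 21.7 RPKM in the KO-labelled pair (log2 fold change -0.11, SE 0.10, edgeR adjusted p 0.666). The receptor SMADs of the TGF-beta branch, Smad2 at 15.8 to 17.7 RPKM and Smad3 at 14.2 to 15.9 RPKM, each had a log2 fold change of -0.01 and overlapping groups. Those of the BMP branch, Smad1 at 6.18 to 6.92 RPKM and Smad5 at 5.64 to 8.31 RPKM, had log2 fold changes of -0.10 and -0.27 without overlap.

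Smad7, the inhibitory SMAD that TGF-beta itself induces, stood apart from these. It was at 11.6 and 15.2 RPKM in WT against 9.31 and 8.86 RPKM in the KO-labelled pair, both below the WT libraries. The means were 13.4 ± 2.50 and 9.09 ± 0.316 RPKM (SD, n = 2 each) and the log2 fold change was -0.54 (SE 0.14, unadjusted p 0.00624, edgeR adjusted p 0.144). Without the first WT library the log2 fold change was -0.71 (edgeR adjusted p 0.0320), and without the second it was -0.34 (edgeR adjusted p 0.272). Smad6, the inhibitory SMAD of the BMP branch, was not tested, with 6 and 5 reads in the WT libraries and 4 and 0 in the KO-labelled ones, and a count of 0 in the second KO-labelled library allows up to 0.161 CPM.

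The 5 intracellular regulators, all between 10.3 and 57.7 RPKM, had 95% intervals within 1.5-fold in either direction. Smurf1, an E3 ubiquitin ligase that marks SMADs and receptors for degradation, was the highest, at 52.3 and 57.7 RPKM in WT against 51.8 and 51.3 RPKM in the KO-labelled pair (log2 fold change -0.08, SE 0.10). Its relative Smurf2 lay between 10.4 and 13.4 RPKM. The SMAD corepressors Ski, Skil and Tgif1 had log2 fold changes of 0.00, -0.08 and -0.03, with Tgif1 at 38.2 to 41.5 RPKM over the 4 libraries.

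**Figure D2:**
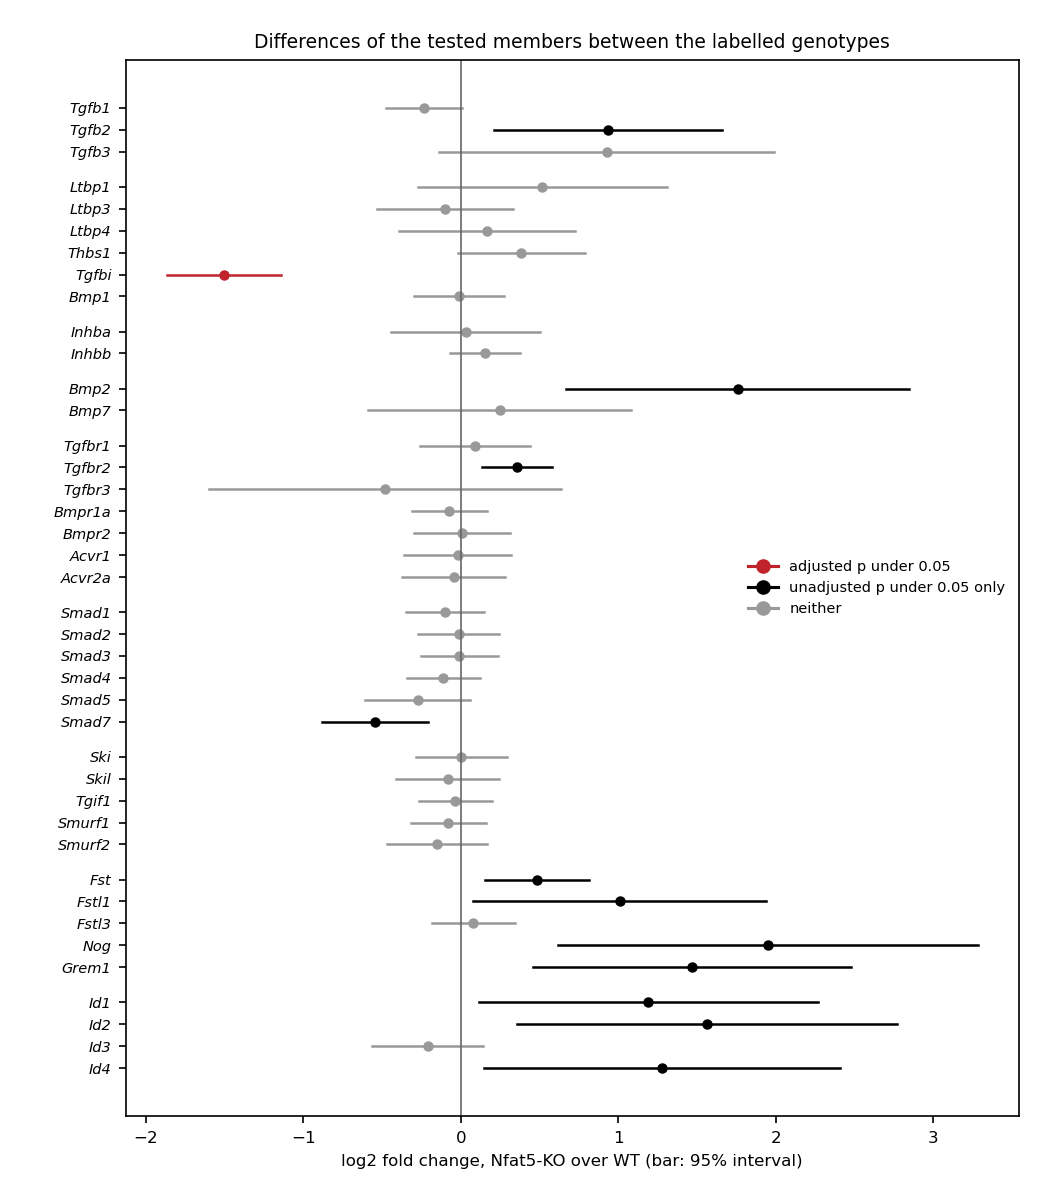
log2 fold change of Nfat5-KO over WT (horizontal) for the 40 tested genes (vertical, in role order), with 95% intervals as bars, red past an adjusted p of 0.05, black past an unadjusted p of 0.05 alone and grey otherwise. Tgfbi at -1.50 is the red point, the receptor, SMAD and regulator genes other than Tgfbr2, Tgfbr3 and Smad7 sit near 0 with short bars, and the Nog, Bmp2, Id2 and Grem1 points lie beyond 1.4 with long bars.

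The secreted antagonists bind ligands and keep them from their receptors. All 5 tested had a log2 fold change above 0, as did 48.0% of all genes. An unadjusted p under 0.05 was found for 4 of them, against 14.6% of all genes, but none passed the edgeR test. Of these 4, Nog and Grem1 were tested through the KO-labelled libraries alone, which favours a higher level there. Fst, which encodes the activin-binding protein follistatin (chromosome 13, 114452262 to 114458949), was the highest, at 46.3 and 61.2 RPKM in WT against 74.2 and 74.3 RPKM in the KO-labelled pair. Both of the latter lay above WT, and the means were 53.8 ± 10.5 and 74.2 ± 0.107 RPKM (SD, n = 2 each). The log2 fold change was 0.48 (SE 0.14, unadjusted p 0.0103, edgeR adjusted p 0.180), without the second WT library it was 0.69 with an adjusted p of 0.0261, and without the first it was 0.31 with an adjusted p of 0.441. Fstl3, a related activin inhibitor, was at 34.8 to 39.6 RPKM with overlap, and 48.7% of its exon reads were placed at a single site.

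The BMP antagonists Nog and Grem1 were near the detection limit. Nog, which encodes noggin, was at 0.106 and 0.107 RPKM in WT against 0.514 and 0.309 RPKM in the KO-labelled pair, from 3, 4, 21 and 10 reads. Grem1, which encodes gremlin 1, was at 0.116 and 0.131 RPKM in WT against 0.270 and 0.404 RPKM in the KO-labelled pair, from 8, 12, 27 and 33 reads. Both genes were higher in each KO-labelled library than in either WT library, with log2 fold changes of 1.95 (SE 0.57) and 1.47 (SE 0.43). The edgeR adjusted p was 0.180 for Nog and 0.181 for Grem1.

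Fstl1, a secreted glycoprotein of the follistatin family that is known to bind BMP4, was at 0.206 and 0.310 RPKM in WT against 0.449 and 0.705 RPKM in the KO-labelled pair, from 14, 30, 42 and 52 reads. The groups did not overlap, with a log2 fold change of 1.01 (SE 0.40, unadjusted p 0.0371, edgeR adjusted p 0.309). Without the second KO-labelled library it was 0.65. Bambi, a pseudoreceptor that blocks signalling, was not tested, with 15 and 9 reads in the WT libraries and 9 and 7 in the KO-labelled ones.

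The Id genes encode helix-loop-helix proteins that lack a DNA-binding part, hold back other helix-loop-helix factors and are classic targets of BMP and SMAD1/5. Of the 4, Id3 was the main one in KCs, at 9.60 and 9.999 RPKM in WT against 8.35 and 8.85 RPKM in the KO-labelled pair (log2 fold change -0.21, SE 0.15, edgeR adjusted p 0.582). Id1, Id2 and Id4 stayed under 1 RPKM in every library. For Id3 both KO-labelled libraries were the lower ones, and for the other three they were the higher ones.

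Id2 was at 0.197 and 0.259 RPKM in WT against 0.443 and 0.988 RPKM in the KO-labelled pair, from 8, 15, 26 and 46 reads. Id1 was at 0.311 and 0.272 RPKM against 0.644 and 0.677 RPKM, from 6, 7, 18 and 15 reads, and Id4 was at 0.125 and 0.0704 RPKM against 0.248 and 0.231 RPKM, from 9, 6, 23 and 18 reads. The log2 fold changes were 1.56 (SE 0.51) for Id2, 1.19 (SE 0.46) for Id1 and 1.28 (SE 0.48) for Id4. Their edgeR adjusted p was 0.235, 0.302 and 0.293, and the unadjusted p 0.0181, 0.0344 and 0.0318, so none of the 3 passed the test. Without the second KO-labelled library the log2 fold change of Id2 was 0.88, and without the second WT library that of Id4 was 0.82.

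The RefSeq promoters of Id2, Id3 and Id4 on GRCm38.p6 are shown because Id3 was far above Id2 and Id4 in level. No entry was matched for Id1, another of the low genes. Each ends at the start of a RefSeq transcript, and the windows of Id2 and Id3 lie inside these genes as the files bound them. They cover chr12:25096093-25096342 (minus strand), chr4:136143572-136143821 (plus strand) and chr13:48260866-48261115 (plus strand), 250 bases each, with the same 2 words in capitals.
Id2: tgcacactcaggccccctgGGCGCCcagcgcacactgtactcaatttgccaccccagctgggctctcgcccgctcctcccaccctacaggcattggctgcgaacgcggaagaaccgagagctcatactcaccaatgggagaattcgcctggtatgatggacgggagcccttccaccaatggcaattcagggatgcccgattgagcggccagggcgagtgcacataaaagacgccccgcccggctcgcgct
Id3: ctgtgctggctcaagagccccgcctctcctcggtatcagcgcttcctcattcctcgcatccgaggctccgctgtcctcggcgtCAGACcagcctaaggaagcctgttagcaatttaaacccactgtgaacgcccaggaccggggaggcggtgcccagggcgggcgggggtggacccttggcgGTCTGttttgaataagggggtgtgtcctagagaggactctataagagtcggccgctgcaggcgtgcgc
Id4: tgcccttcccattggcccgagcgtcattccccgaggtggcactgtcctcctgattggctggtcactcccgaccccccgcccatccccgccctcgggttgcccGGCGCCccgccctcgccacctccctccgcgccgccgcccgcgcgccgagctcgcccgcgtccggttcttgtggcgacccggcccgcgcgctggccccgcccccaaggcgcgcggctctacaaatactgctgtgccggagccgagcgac
Id3 held CAGAC 2 times and no GGCGCC, while Id2 and Id4 each held GGCGCC 1 time and no CAGAC. The letters absent here are absent from this window of 250 bases alone, and the GC content was 62.8%, 62.8% and 75.6% for Id2, Id3 and Id4.

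**Figure D3:**
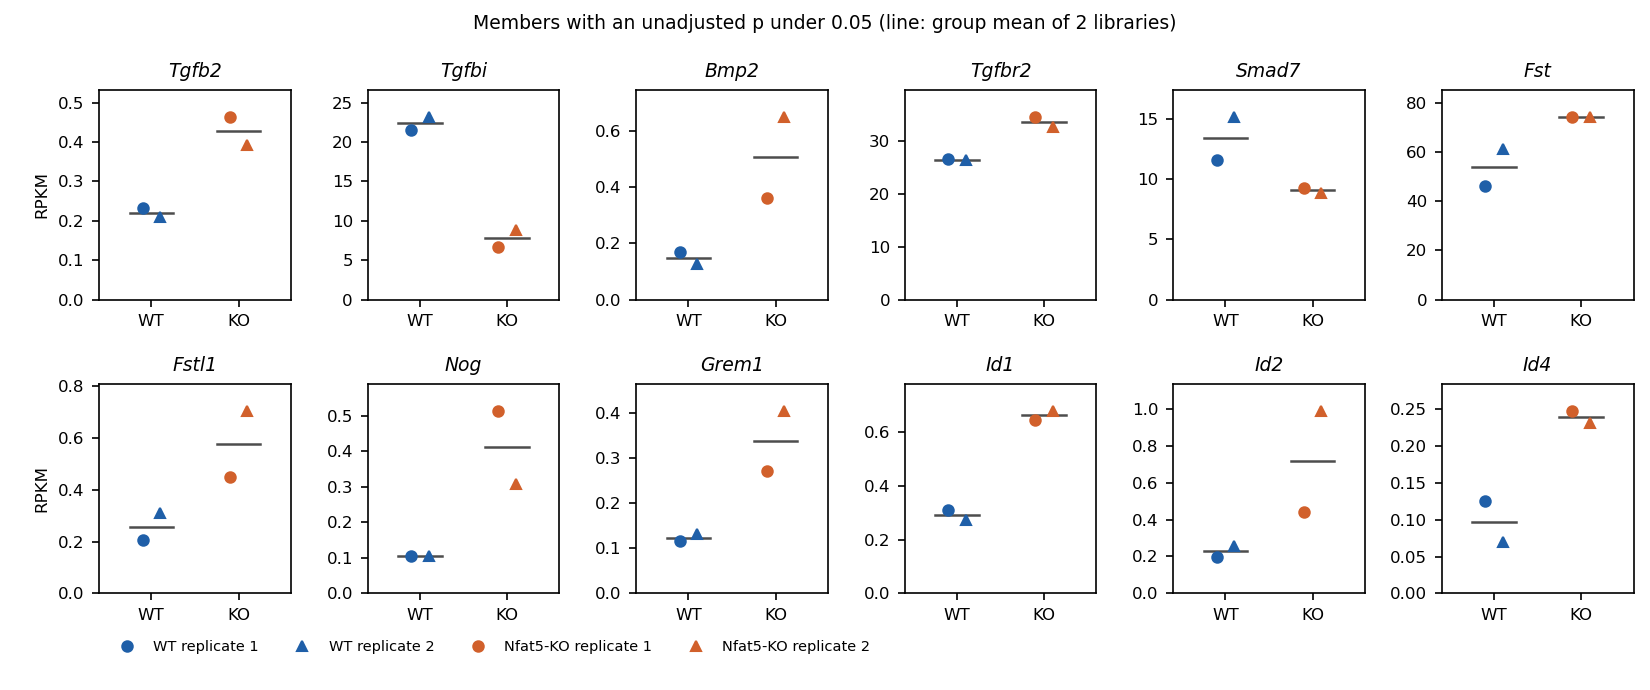
RPKM (vertical, from 0, with its own scale for each gene) in WT and Nfat5-KO (KO) for the 12 genes with an unadjusted p under 0.05, with circles for replicate 1, triangles for replicate 2 and lines at the mean of the 2 libraries. The groups do not overlap in any of the 12, and the KO points are the lower ones for Tgfbi and Smad7 alone.

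The differences were also read against the level of the genes. Of the 30 signalling genes at 1 RPKM or more in every library, 12 lay above and 18 below a log2 fold change of 0, the median was -0.02, and 4 had an unadjusted p under 0.05. Among all 9756 tested genes at that level, 47.4% lay above 0 and 13.1% had such a p. Of the 9 tested genes under 1 RPKM in every library, 8 lay above 0, the same 8 had an unadjusted p under 0.05, and the median was 1.28. Of the 2112 tested genes that low, 48.4% lay above 0 and 14.5% had such a p. This split by level was made after the values were seen, and the 5 genes tested through the KO-labelled libraries alone are all among the 9, so that their number carries no support.

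Within these low genes the KO-labelled libraries did not keep one order. By RPKM, Bmp2, Fstl1, Grem1, Id1 and Id2 were highest in the second of them and Nog, Tgfb2 and Id4 in the first. Fibroblast markers were also highest in the second library, with a summed level of 4.71 and 2.21 RPKM in WT against 5.95 and 10.1 RPKM in the KO-labelled pair, of which Vim made up the most. Of the 10 fibroblast markers 7 were under 0.5 RPKM in every library, among them Col1a2, Col3a1, Dcn, Lum and Pdgfra, and Lum was at 0 in 3 libraries. None of the 4 fibroblast markers tested passed the edgeR test. All 4 had a log2 fold change above 0, with a median of 1.01, and Vim and Thy1 had an unadjusted p under 0.05. Thy1 was at 0.0560 and 0.105 RPKM in WT against 0.367 and 0.706 RPKM in the KO-labelled pair and was tested through the latter alone (log2 fold change 2.65, SE 0.61, edgeR adjusted p 0.102). The part of fibroblast RNA in the low genes was not tested.

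Other genes of the pathway were taken from lists of ligands, receptors, SMAD partners, antagonists and textbook induced genes, 99 in all. Of the 62 tested, 4 passed the edgeR test, against 1.27% of all genes. Each of them was higher, against 0.943% of all genes, and each was in the list of TGF-beta-induced genes. Before adjustment, 17 had a p under 0.05 (27.4%, against 14.6% of all genes), 13 higher and 4 lower. In the remaining lists none passed and 7 had an unadjusted p under 0.05. The smallest adjusted p was 0.221 for Inha among 7 other ligands, 0.365 for Acvr1b among 9 receptors, 0.313 for Nedd4l among 11 SMAD partners, 0.0901 for Nrros among 15 antagonists and activators of latent TGF-beta, and 0.347 for Msx1 among 4 BMP-induced genes. Most reads of Nrros lay in introns, 93 of 109 and 155 of 178 in WT and 59 of 71 and 64 of 74 in the KO-labelled pair. Its RPKM was 0.242 and 0.261 in WT against 0.125 and 0.132 in the KO-labelled pair.

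The 16 TGF-beta-induced genes tested had a median log2 fold change of 0.53, with 14 above and 2 below 0, against -0.01 for all genes. Klf10, an early transcription factor gene of the TGF-beta response, rose from 9.23 and 7.32 RPKM to 16.0 and 19.4 RPKM (log2 fold change 1.12, SE 0.16, edgeR adjusted p 0.0265). Cdh2, which encodes N-cadherin, rose from 1.92 and 2.17 RPKM to 5.67 and 9.62 RPKM (log2 fold change 1.91, SE 0.26, edgeR adjusted p 0.0252), with 69.0% of its exon reads placed at a single site. Without the second KO-labelled library the adjusted p was 0.173 for Klf10 and 0.0800 for Cdh2, and without the first it was 0.0776 for Klf10.

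Acta2 and Tagln, which encode smooth muscle actin and the actin-binding protein transgelin, were the other two past the threshold. Acta2 rose from 164 and 134 RPKM to 450 and 723 RPKM (log2 fold change 2.00, SE 0.23, edgeR adjusted p 0.0192). Tagln rose from 19.7 and 16.7 RPKM to 66.3 and 93.1 RPKM (log2 fold change 2.11, SE 0.19, edgeR adjusted p 0.00768). Both genes also belong to the smooth muscle markers, of which all 5 tested passed the test and were higher, against 0.943% of all genes. Among them Myh11, with 1 read in each WT library and 22 and 40 in the KO-labelled pair, was tested through the latter alone and stayed under 0.3 RPKM. Des was at 0 in 3 of the 4 libraries. The part of smooth muscle cells in these values was not tested. Tagln shares exon bases with Pcsk7 on the opposite strand, and reads of the 2 genes cannot be told apart without strand.

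The other 12 genes of the list were not past the threshold. Fn1, which encodes the matrix protein fibronectin, lay at its edge, at 33.8 and 55.0 RPKM in WT against 114 and 221 RPKM in the KO-labelled pair (log2 fold change 1.94, SE 0.34, edgeR adjusted p 0.05001). It was past the threshold in 11 of 14 alternatives, and without the second KO-labelled library its adjusted p was 0.203. Tgm2, a transglutaminase gene, was at 2.64 and 1.90 RPKM against 4.36 and 5.37 RPKM (log2 fold change 1.12, SE 0.21, edgeR adjusted p 0.0601) and was past it in 4 of 14, with 29.5% of its exon reads placed at a single site. Ctgf, a matricellular growth factor gene, was at 247 and 231 RPKM against 320 and 379 RPKM (log2 fold change 0.57, SE 0.12, edgeR adjusted p 0.0867). Bhlhe40 differed the other way, at 187 and 214 RPKM in WT against 143 and 138 RPKM in the KO-labelled pair, without overlap. Its log2 fold change was -0.50 (SE 0.11, edgeR adjusted p 0.0874). Pmepa1, a feedback inhibitor of the pathway, overlapped between the groups, with a log2 fold change of -0.16 that ran from -0.28 to -0.03 when a library was left out. Tgfbi, itself a TGF-beta-induced gene, was past the threshold in the direction opposite to Acta2, Tagln, Cdh2 and Klf10.

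**Figure D4:**
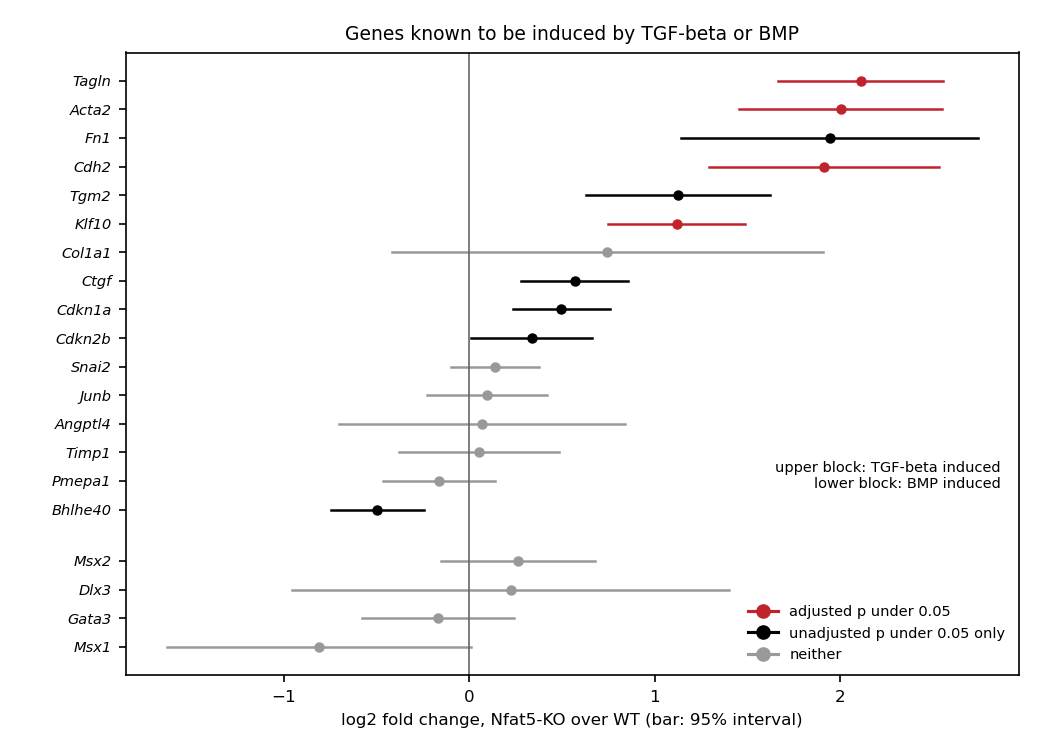
log2 fold change of Nfat5-KO over WT (horizontal) with 95% intervals for 16 TGF-beta-induced genes (upper block) and 4 BMP-induced genes (lower block) that are not among the 44, in the same colours as the plot of the 40 tested genes. Tagln, Acta2, Cdh2 and Klf10 are the red points between 1.12 and 2.11, and Bhlhe40 is the lowest of the upper block at -0.50.

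Some levels carry a limit of counting. Exons of 11 of the 44 genes, among them Tgfb2, Thbs1, Fst and Id4, share bases with a gene on the opposite strand in GENCODE, and since no source says that strand was used, reads of such pairs cannot be told apart. For Acvr2a and Fstl3 the partner is a named protein-coding gene (Orc4 and Prss57).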

How the data were processed

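Tail KCs of WT and Nfat5-/- mice were sequenced as poly(A) RNA, 2 libraries each, and groups and replicate numbers were read from the sample titles. Per the labels and methods, the authors mapped reads with the CLC Genomics Workbench to GRCm38 and deposited, for each gene and library, counts of total, exon, uniquely placed exon and intron reads and an RPKM value. RPKM was printed with decimal commas and was used for levels. All value columns belonged to a sample (0 without).

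Counts of total gene reads were tested with edgeR 4.0.16 (R 4.3.3; filterByExpr with a minimum count of 10, TMM factors 0.98 to 1.01, quasi-likelihood test, two-sided) over 12614 genes, with Benjamini-Hochberg adjusted p-values over all of them. The script was tested on simulated counts. Replicates differed by more than counting noise (chi-square per degree of freedom 16.7 in WT and 17.3 in Nfat5-KO) and were not counted as 1 library deposited again; that they come from separate animals is not shown by this, and p-values measure only the spread between these libraries. A read floor of 3 equals 0.128 to 0.185 CPM and covers counting error only. Alternatives used DESeq2 1.42.0, limma 3.58.1, other filters, read types and scalings, a replicate block and leaving out each library. Per-library values are given for each signalling gene with an unadjusted p under 0.05 or a 2-fold RPKM ratio and for the highest gene of each role. Fn1, Tgm2, Ctgf, Bhlhe40, Pmepa1, Thy1, Sox9, Lhx2, Krtdap and the keratins were picked with their values known. A gene of the TGF-beta-induced list is not reported here, and the list's counts leave it out. The 44 genes, the other lists and the tests were chosen with earlier results of these data known. Promoters and strand overlaps came from RefSeq (GRCm38.p6) and GENCODE M21.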

Additional observations from a re-analysis of the deposited data

How the results depend on the processing

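Tgfbi kept its direction in all 14 alternatives with a test and passed the adjusted threshold in 13 of them, with log2 fold changes from -1.73 to -1.30. Leaving out 1 library gave 16 to 478 genes called in all against 160, 0 to 2 signalling genes called against 1, 6 to 13 signalling genes with an unadjusted p under 0.05 against 12, and 2 to 7 other pathway genes called against 4. Fits without a library left 1 group with a lone sample, which is assumed to vary like the others. Without a filter on low counts the calls were 1137 genes, 8 signalling genes (Bmp2, Fst, Grem1, Id2, Ltbp1, Smad7, Tgfbi and Thbs1) and 16 other pathway genes. DESeq2 called 426, 2 (Tgfbi and Tgfbr2) and 10. With at least 10 reads in every library, which removes 5 of the 40 signalling genes, 7 signalling genes had an unadjusted p under 0.05, and with limma, at either pseudocount (1 or 0.1) and with genes at 0.5 RPKM in 2 libraries, 5 had. Without the RPKM floor 10 signalling genes were past 2-fold. The causes were not tested beyond the numbers of genes tested.

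Of 261 values of 20 named genes over the alternatives, 25 came to pass the threshold, 4 lost it, the rest kept their side of it and 0 changed sign. No source says that a replicate number pairs animals, and the deviations of same-numbered libraries correlated at -0.0652. With a replicate block, 132 genes, 1 signalling gene (Tgfbi) and 5 other pathway genes were called, and 13 signalling genes had an unadjusted p under 0.05. Depth limits the genes under 1 RPKM most, where the median SE was 0.46 on the log2 scale against 0.14 for those above.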

Other observations

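Reads in introns are part of the total gene reads that were tested and are also listed on their own in the files. Of the 44 signalling genes, 30 reached 10 intron reads, summed over the libraries. In 16 of these (53.3%) the intron CPM of both KO-labelled libraries lay below both WT libraries, and in 2 (6.67%) above, against 36.6% and 9.72% of the 10405 genes with as many intron reads. Among the 6 SMAD genes with such reads, 4 were lower without overlap. Smad1 held 24 and 42 intron reads in WT against 17 and 16 in the KO-labelled pair, Smad2 held 24 and 35 against 18 and 9, Smad3 held 15 and 20 against 12 and 7, and Smad4 held 26 and 18 against 10 and 10. The total reads of Smad2 and Smad3 had log2 fold changes of -0.01. Intron reads made up 1.97% and 1.94% of all gene reads in WT and 1.85% and 1.79% in the KO-labelled pair. These are small counts, no test was run on them, and what part the lower intron share of the libraries has in them was not tested.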
